A study of Homo sapiens with 6 samples.

Results

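CALB2 (calretinin), CALB1 (calbindin), the calmodulin genes CALM2 and CALM3, and CALU (calumenin) are 5 of the 63563 genes in the deposited table of RKO cells with and without overexpressed connexin 43. They were picked by symbol, with their OVER43 and EV values already known, so the OVER43 and EV levels of these genes and of their transcripts are given here as a description with no test. RKO is an established human colorectal cancer cell line. The OVER43 libraries came from cells stably transfected with the pCDNA3.1 vector carrying the cDNA of connexin 43 (Cx43, encoded by GJA1). The EV libraries came from control cells with the empty vector, labelled with the genotype WT. Each group had 3 poly(A) RNA libraries, called here by the column numbers 0, 1 and 2, and all cells were grown in DMEM with fetal bovine serum. The labels state neither whether a line was 1 clone or a pool nor whether each library had a culture of its own. The p-values given for other genes therefore measure the spread between these libraries, which may be technical.

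All these proteins bind calcium through EF-hands, helix-loop-helix motifs whose loop holds the ion. Calretinin and calbindin are cytosolic calcium buffers best known from neurons, and calretinin is also a marker of mesothelium. Calmodulin is the ubiquitous calcium sensor, which changes shape on binding calcium and then binds kinases, the phosphatase calcineurin, channels and, among many others, connexins including Cx43. Calumenin is a CREC protein (a family of low-affinity EF-hand proteins) of the endoplasmic reticulum that is known to inhibit vitamin K dependent carboxylation.

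CALM2 and CALM3 lie on different chromosomes, and within the coding sequence their reads are told apart by silent differences. The coding sequence is only a part of the main transcripts, CALM2-201 of 1302 bases and CALM3-201 of 2289 bases. In the GENCODE 29 transcripts (GRCh38), each had a coding sequence of 450 bases, and the predicted proteins of 149 residues were identical. The coding sequences shared 368 bases (81.8%), and the longest run of bases shared by the main transcripts was 17. The first calcium-binding loop, coding bases 61 to 96, shows how the genes differ; capitals mark the 7 of its 36 positions where the bases are not the same, and each sequence is the coding strand, 5′ to 3′.
CALM2 loop 1: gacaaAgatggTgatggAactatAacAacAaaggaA
CALM3 loop 1: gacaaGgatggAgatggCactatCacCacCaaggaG
The fourth loop, coding bases 388 to 423, likewise differed at 7 of 36 positions.
CALM2 loop 4: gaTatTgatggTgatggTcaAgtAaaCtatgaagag
CALM3 loop 4: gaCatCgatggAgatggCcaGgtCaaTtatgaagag
In the predicted proteins, the PROSITE pattern of the EF-hand loop was searched without its last position. It matched 4 times in calmodulin, 5 times in the 271 residues of calretinin, 4 times in the 261 of calbindin and 5 times in the 315 of calumenin.

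The introduced gene was high in the group labelled as overexpressing it. GJA1 had 23.2, 26.0 and 24.9 FPKM in OVER43 libraries, against 0.2999, 0.351 and 0.394 FPKM in EV libraries (FPKM is the fragment count scaled by transcript length and by library depth; limma log2 difference 4.25, SE 0.0814, adjusted p 3.22e-08). The steps between low FPKM values gave about 46800000 to 49100000 fragments per OVER43 library and 42400000 to 52000000 per EV library, so that 1 fragment per kilobase was worth 0.0192 to 0.0236 FPKM. A filter of 1 FPKM or more in 3 or more libraries left 12205 genes, of which limma on log2(FPKM + 1) called 3462 higher (28.4%) and 2138 lower (17.5%) in OVER43 at an adjusted p under 0.05. That split depends on scaling, because FPKM summed to between 554170 and 566675 in OVER43 libraries and between 500290 and 508909 in EV libraries. Among genes of the colorectal list, KRT18, KRT8, EPCAM and CDX2 passed the filter, while 8 of 12, with CDH1, VIL1 and CDH17 among them, did not and KRT20 was listed at 0.

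Calretinin RNA was about 2-fold higher in OVER43 than in EV cells. CALB2 (ENSG00000172137, chr16:71392616-71424341; loci are given as hg19 positions) had 199.9, 196 and 206 FPKM in OVER43 libraries, against 97.4, 94.3 and 94.9 FPKM in EV libraries. Every OVER43 library was above every EV library, and the means were 200.8 ± 4.91 and 95.5 ± 1.64 FPKM (SD, n = 3 each). The ratio was 2.10, or a difference of 1.06 in log2(FPKM + 1), which placed CALB2 at rank 64 from the top among the 12205 genes. By level, CALB2 lay above 97.1% of the tested genes in OVER43 cells and above 93.7% in EV cells. The isoform table also holds an entry for the whole gene with its introns, which had 0.913 ± 0.00765 FPKM in OVER43 and 0.573 ± 0.0229 FPKM in EV libraries, a ratio of 1.59 with no overlap.

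Calbindin and the other small EF-hand buffers were at the edge of detection. CALB1 (ENSG00000104327, chr8:91070836-91107703), the closest relative of calretinin, had 0.00392, 0.0543 and 0.0931 FPKM in OVER43 libraries, against 0.0913, 0.502 and 0.0369 FPKM in EV libraries. These values overlapped and did not pass the filter, and no fold is given. Secretagogin (SCGN), a calcium sensor of neuroendocrine cells, was listed at 0 in all OVER43 libraries and in EV libraries 1 and 2, with 0.0627 FPKM in EV library 0. Parvalbumin (PVALB) did not exceed 0.0963 FPKM and oncomodulin (OCM) did not exceed 0.154 FPKM in any library, and S100G (calbindin-D9k) was listed at 0 in all 6.

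**Figure D1:**
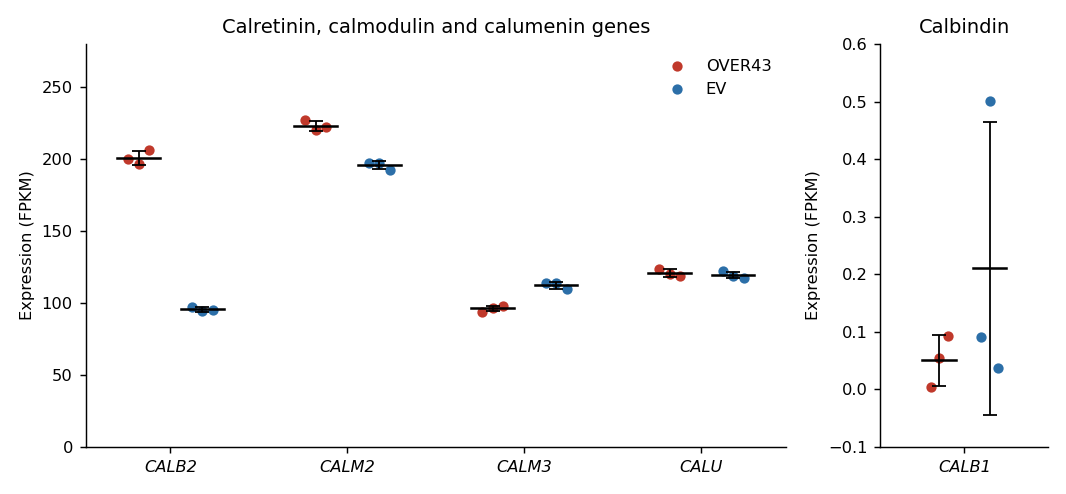
Expression in FPKM (vertical axis, linear) of CALB2, CALM2, CALM3 and CALU and, on its own axis, CALB1; each point is a library, bars are mean and SD, OVER43 left of EV in each pair. CALB2 averaged 200.8 FPKM in OVER43 and 95.5 FPKM in EV libraries. CALM2 is slightly higher in OVER43 as deposited, a difference that is lost under quantile scaling, CALM3 is lower, and CALU overlaps.

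The calmodulin genes CALM2 and CALM3 differed between OVER43 and EV in opposite directions as deposited, by far less than CALB2. The CALM2 difference was lost under quantile scaling. CALM2 (ENSG00000143933), whose deposited locus, chr2:47126414-47403740, also covers TTC7A and MCFD2, had 227, 220.2 and 222 FPKM in OVER43 libraries, against 197, 197 and 193 FPKM in EV libraries. Its OVER43 values were all above its EV values, with means of 223 ± 3.51 and 196 ± 2.67 FPKM (SD, n = 3 each), 14.0% higher or 0.19 on the log2 scale as deposited, but -0.0048 after quantile scaling.

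CALM3 (ENSG00000160014, chr19:46984053-47114050) had 93.9, 96.7 and 98.0 FPKM in OVER43 libraries, against 114, 114 and 109.6 FPKM in EV libraries. All OVER43 libraries were below all EV libraries, the means being 96.2 ± 2.06 and 112 ± 2.39 FPKM (SD, n = 3 each), a log2 difference of -0.22 that stayed below 0 under every scaling run. The deposited symbol of this row reads CALM2 and CALM3 together, so it was named by its Ensembl identifier.

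The ratio of CALM2 to CALM3 within a library does not depend on a scaling factor of that library. It was 2.42, 2.28 and 2.27 in OVER43 libraries, against 1.74, 1.73 and 1.76 in EV libraries. All OVER43 ratios were above all EV ratios, with means of 2.32 ± 0.0831 and 1.74 ± 0.0136 (SD, n = 3 each). Pseudogenes of CALM2, which could take up its reads, were low: CALM2P2 had 1.12 ± 0.343 FPKM in OVER43 and 1.08 ± 0.686 FPKM in EV libraries, CALM2P3 had 0.436 ± 0.0658 and 0.346 ± 0.112 FPKM, and CALM2P1 and CALM2P4 were listed at 0.

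At the gene level, calumenin did not separate the groups. CALU (ENSG00000128595, chr7:128379346-128411861) had 124, 119.8 and 119 FPKM in OVER43 libraries, against 122, 119 and 118 FPKM in EV libraries. The ranges overlapped, with means of 120.7 ± 2.75 and 119.4 ± 2.24 FPKM (SD, n = 3 each); the log2 difference of 0.02 as deposited became -0.04, -0.13 and -0.17 under TMM, equal-sum and quantile scaling. Of the 5 chosen genes, 4 passed the filter, and 3 of these 4 did not overlap between the groups, 2 higher and 1 lower in OVER43; over all tested genes 56.3% did not overlap, 33.9% higher and 22.4% lower, and nothing is read from the count because these values chose the genes.

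Ordered by FPKM, which is per length, the 5 genes in OVER43 cells ran from CALM2 (223) through CALB2 (200.8), CALU (120.7) and CALM3 (96.2) to CALB1. In EV cells the order was CALM2 (196), CALU (119.4), CALM3 (112), CALB2 (95.5) and CALB1. No neighbours in either order overlapped between genes. CALB2 therefore ranked below CALM3 and CALU in EV cells and above both in OVER43 cells.

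One transcript carried most of the signal for CALB2, CALM2 and CALM3. CALB2-201, which encodes full-length calretinin, had 188.6 ± 2.07 FPKM in OVER43 and 89.3 ± 1.84 FPKM in EV libraries, or 94.4 ± 1.33% and 94.1 ± 0.310% of the gene's spliced transcripts. CALB2-202, whose predicted protein has 192 residues and 4 EF-hand matches, held 3.46% in OVER43 and 3.53% in EV libraries. The split of calretinin transcripts thus overlapped between the groups, and both transcripts were higher in OVER43.

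CALM2-201 held 92.0% of CALM2 in OVER43 and 93.4% in EV libraries, with CALM2-204 next at 6.82% and 5.37%. CALM3-201 held 95.0% of CALM3 in OVER43 and 93.7% in EV libraries. CALU was divided between CALU-201, at 71.1 ± 1.54% in OVER43 and 68.4 ± 0.733% in EV libraries, and CALU-202, at 24.3 ± 1.19% and 26.1 ± 1.30%. The shares of CALU-201 did not overlap between the groups, while those of CALU-202 did. Those of CALM2-204 and CALM3-201 did not overlap either, while those of CALM2-201 did. How often shares separate over all transcripts was not computed, so nothing is read from this. As deposited, CALU-201 had 85.3 ± 0.145 FPKM in OVER43 and 81.1 ± 2.24 FPKM in EV libraries, with no overlap. The CALU entry for the whole gene with its introns was lower in OVER43, at 0.621 ± 0.0377 against 0.717 ± 0.0325 FPKM, also with no overlap. The predicted proteins of these calumenin transcripts shared 292 of 315 residues, and the transcripts, of 3357 and 2438 bases, shared a run of 1943 bases.

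**Figure D2:**
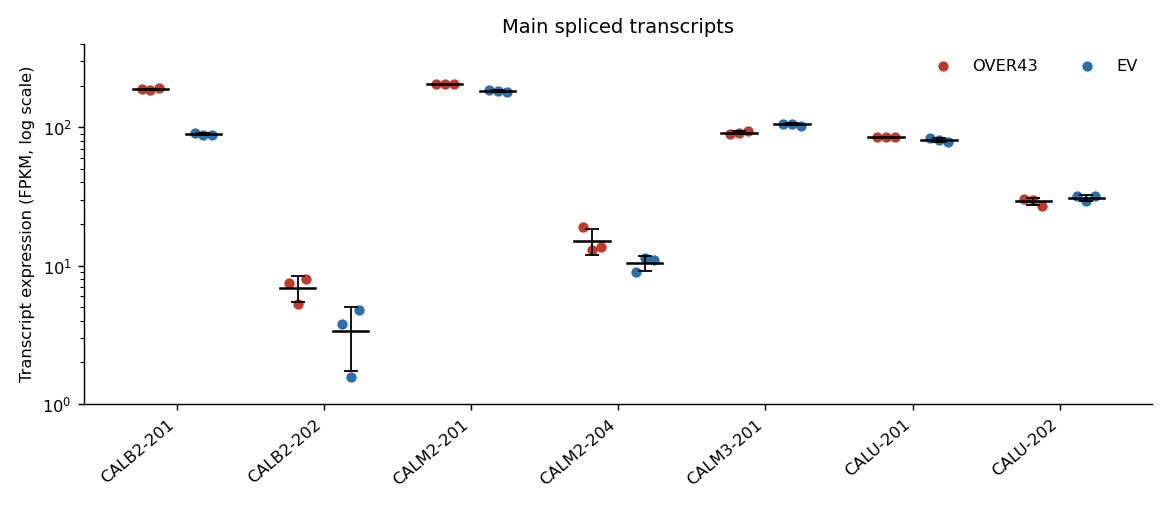
Expression in FPKM (vertical axis, logarithmic) of the main spliced transcripts of CALB2, CALM2, CALM3 and CALU; points are libraries, bars are mean and SD, OVER43 left of EV. CALB2-201 averaged 188.6 FPKM in OVER43 and 89.3 FPKM in EV libraries, and CALM3-201 averaged 91.1 and 104.9 FPKM.

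Calretinin is used as a mesothelial and neuronal marker, and other markers of these cells were scarce. Of 7 mesothelial genes only LRRN4 passed the filter, with 3.73 ± 0.362 FPKM in OVER43 and 1.43 ± 0.300 FPKM in EV libraries (limma log2 difference 0.96, adjusted p 0.00048). The defining genes MSLN and WT1 did not pass it, and the list without calretinin summed to between 4.32 and 4.57 FPKM in OVER43 libraries and between 1.73 and 2.46 FPKM in EV libraries. Of the neuronal and neuroendocrine list, 2 of 13 measured genes (GAD1 and TUBB3) passed the filter and neither was called; NCAM1 was listed at 0, and the sum was 22.4 to 23.9 FPKM in OVER43 and 21.8 to 25.0 FPKM in EV libraries. Of 13 fibroblast, leukocyte and endothelial markers 1 passed, the lysosomal gene CD68, with 376 ± 9.38 FPKM in OVER43 and 413 ± 8.11 FPKM in EV libraries, while COL3A1, PTPRC and CD3E were listed at 0. The part of these markers in the CALB2 difference was not tested. In bulk RNA, a change in the number of cells that express a gene and a change in RNA per cell cannot be told apart.

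None of the genes tested around CALB2 had as high a log2 difference. Few genes anywhere did, with CALB2 at rank 64 from the top of 12205, so nothing is read from it. With deposited loci that reach within 2 Mb of CALB2, 46 other genes were tested. Among them 4 were higher and 17 lower in OVER43, beside 28.4% higher and 17.5% lower over all tested genes. Their median log2 difference was -0.15 (0.05 over all tested genes), and 0 lay above CALB2. Of the 46, 10 genes shared 1 broad deposited locus whose centre lay further than 2 Mb away. The other 36 had 3 higher, 15 lower and a median of -0.17. The nearest tested neighbours of CALB2 on the left were CMTR2, an mRNA cap methyltransferase, with 60.9 ± 2.44 FPKM in OVER43 and 39.9 ± 3.46 FPKM in EV libraries (log2 0.60, limma adjusted p 0.000207), and HYDIN (0.27, adjusted p 0.0816). On the right, the zinc finger genes ZNF19 and ZNF23 differed by -0.05 and -0.06 and were not called.

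The windows of the same size around CALM2, CALM3 and CALU had medians of 0.04 over 19 genes, 0.09 over 76 and 0.06 over 35. Called higher and lower were 4 and 2 around CALM2, 26 and 8 around CALM3, and 9 and 6 around CALU. Over all tested genes the shares were 28.4% and 17.5%. Among the nearest genes of these 3, MCFD2 (0.44), EPCAM (0.67), PPP5C (0.26) and CCDC136 (0.35) were called higher. The unnamed ENSG00000243679 was called lower (-0.21, limma adjusted p 0.0465). The rest of the nearest genes taken were not called, and 45.9% of all tested genes were called, so nothing is read from these calls. RHOQ was taken as a neighbour of CALM2 and was not called, but CRIPT, at the same distance, was called lower (-0.26).

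**Figure D3:**
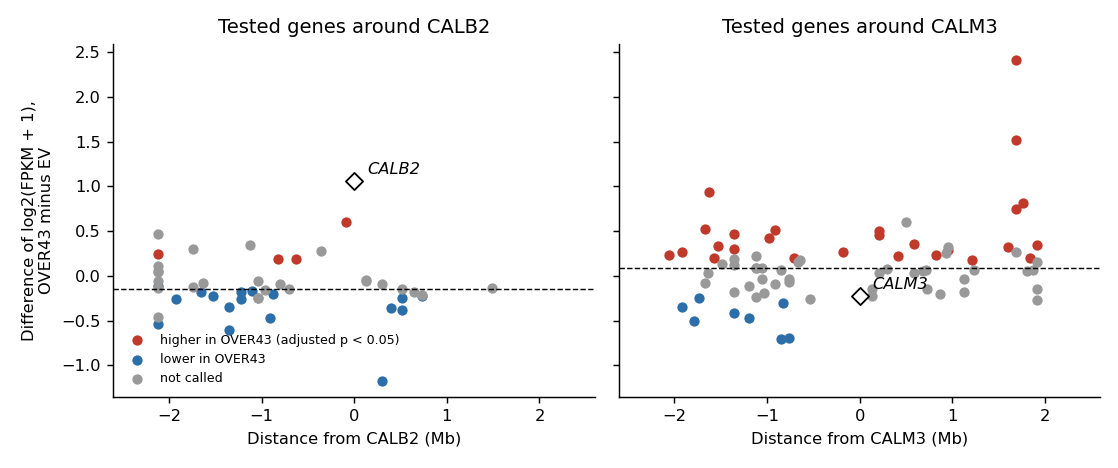
Difference of log2(FPKM + 1), OVER43 minus EV (vertical axis), of tested genes by their distance in Mb (horizontal axis) from CALB2 (left) and CALM3 (right), where genes that share a deposited locus stand at the same distance; dashed lines are the medians of the genes shown. None of the 46 genes around CALB2 is above it, while 64 of the 76 around CALM3 are above it. Among the 12205 tested genes CALB2 ranks 64 and CALM3 9715 from the top, so both counts largely follow from those ranks.

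The genes whose per-library pattern was closest to that of CALB2 were chosen on the same values and get no test. By root mean square difference of the deviations of log2(FPKM + 1) over the 6 libraries, they were PNMA1 (0.0376), the linker histone gene H1-2 (0.0386), the actin-binding protein gene SHROOM3 (0.0446), the metallothionein gene MT1M (0.0576) and the fatty acid desaturase gene SCD (0.0585). PNMA1 had 60.5 ± 0.274 FPKM in OVER43 and 28.4 ± 0.803 FPKM in EV libraries, and SCD had 148.7 ± 3.52 and 75.2 ± 1.43 FPKM. SHROOM3 was weakly expressed, with 1.58 ± 0.0747 FPKM in OVER43 and 0.277 ± 0.0374 FPKM in EV libraries. Its fold was larger than that of CALB2, and its closeness to CALB2 depends on the pseudocount of 1.

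Genes that work with these proteins were taken from 9 lists, without the 5 chosen genes. Of 123 listed genes 80 were tested, and 21 were higher and 18 lower in OVER43, which is 48.8% called against 45.9% of all tested genes; their median log2 difference was 0.0062, against 0.05 over all. The balance of directions turned with scaling, with 18 higher and 27 lower after TMM scaling, 11 and 25 after quantile scaling, and 11 and 31 with equal FPKM sums. Of all genes then tested, 23.1% were higher and 21.2% lower after TMM scaling. The shares were 21.0% and 19.9% after quantile scaling, and 15.3% and 29.3% with equal FPKM sums.

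In the CREC family of calumenin, 2 of the 4 other members were higher and 1 lower in OVER43, beside 28.4% higher and 17.5% lower over all tested genes. RCN1 (reticulocalbin 1), an endoplasmic reticulum protein, had 73.1 ± 5.17 FPKM in OVER43 and 48.9 ± 1.27 FPKM in EV libraries (log2 0.57, limma adjusted p 0.000123). SDF4, the Golgi member Cab45, had 90.6 ± 2.18 and 73.6 ± 2.62 FPKM (log2 0.30, adjusted p 0.000556). RCN3 was lower, with 0.933 ± 0.436 FPKM in OVER43 and 1.69 ± 0.257 FPKM in EV libraries (log2 -0.50, adjusted p 0.0482), but that call was lost under quantile scaling (adjusted p 0.103), with a pseudocount of 0.1 (0.0549), with no filter (0.205) and on leaving out OVER43 library 1 (0.132) or 2 (0.11) or EV library 0 (0.14), 1 (0.0767) or 2 (0.0821). RCN2 had 64.1 ± 1.25 and 61.8 ± 4.94 FPKM and was not called (adjusted p 0.46).

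Of 10 tested calcium-binding proteins of the secretory pathway, 8 were higher and 1 lower, beside 28.4% and 17.5% of all tested genes, with a median log2 difference of 0.22. P4HB, protein disulfide isomerase, had 330.1 ± 9.22 FPKM in OVER43 and 220.5 ± 6.35 FPKM in EV libraries (log2 0.58, limma adjusted p 1.06e-05), and the chaperone calnexin (CANX) 351 ± 22.2 and 258 ± 8.32 FPKM (0.44, adjusted p 0.000217). The chaperone BiP (HSPA5) was lower, with 289.6 ± 2.76 and 326 ± 13.2 FPKM (-0.17, adjusted p 0.00436). After TMM scaling 8 were higher and 1 lower, beside 23.1% and 21.2% of all genes then tested. After quantile scaling 4 were higher and 2 lower, beside 21.0% and 19.9%, and with equal FPKM sums 4 and 1, beside 15.3% and 29.3%.

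Among 20 tested calmodulin-binding proteins, 3 were higher, 6 lower and 11 not called, with a median of -0.08. Over all tested genes 28.4% were higher and 17.5% lower. The called share in either direction was near the 45.9% of all tested genes. Higher and lower were 3 and 8 after TMM scaling, 2 and 7 after quantile scaling, and 2 and 10 with equal FPKM sums. Of all genes then tested, the shares were 23.1% and 21.2%, 21.0% and 19.9%, and 15.3% and 29.3%. The gene of the actin-binding protein caldesmon, CALD1, had 3.39 ± 0.332 FPKM in OVER43 and 19.8 ± 0.523 FPKM in EV libraries (log2 -2.24, limma adjusted p 6.11e-07), and KCNN4, a potassium channel with calmodulin as its calcium sensor, 11.1 ± 0.831 and 43.1 ± 1.19 FPKM (-1.87, adjusted p 5.12e-07). STRN3 (0.49, adjusted p 9.66e-05) and MARCKSL1 (0.46, adjusted p 9.78e-05) were the highest of those called.

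Among 8 tested calmodulin-dependent kinases, 1 was higher and 3 lower, with a median of -0.10. Over all tested genes 28.4% were higher and 17.5% lower. The called share of the kinases in either direction was also near the 45.9% of all tested genes. After TMM, quantile and equal-sum scaling alike, 0 were higher and 4 lower. Of all genes then tested, the shares were 23.1% and 21.2%, 21.0% and 19.9%, and 15.3% and 29.3%. CAMK1D had 1.43 ± 0.106 FPKM in OVER43 and 5.25 ± 0.532 FPKM in EV libraries (log2 -1.36, limma adjusted p 3.5e-05), and DAPK1, a death-associated kinase, 6.84 ± 0.269 and 11.0 ± 0.692 FPKM (-0.61, adjusted p 0.000291). EEF2K, the elongation factor 2 kinase, was higher by 0.24 (adjusted p 0.0225), a call lost after TMM (0.0621), quantile (0.0909) and equal-sum scaling (0.296), with no filter (0.112) and on leaving out OVER43 library 0 (0.0576), OVER43 library 1 (0.0728), EV library 0 (0.0703) and EV library 1 (0.0578). Of 10 tested genes of calcineurin and NFAT signalling, 1 was higher (2 without EV library 0 or EV library 2) and 2 lower, beside 28.4% and 17.5% over all. The transcription factor gene NFATC4 had 2.48, 4.41 and 2.26 FPKM in OVER43 libraries, against 0.819, 1.77 and 0.582 FPKM in EV libraries (0.98, adjusted p 0.0141, and 0.132 with no filter), while the calcineurin regulator RCAN3 (-0.53, adjusted p 0.00462) and the calcineurin B homologue CHP1 (-0.29, adjusted p 0.0011) were lower.

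Of 19 tested calcium pumps and channels, 5 were higher and 2 lower as deposited, beside 28.4% and 17.5% of all tested genes. On leaving out OVER43 library 0, OVER43 library 1 or EV library 0, 3 were higher. After TMM scaling 3 were higher and 5 lower, beside 23.1% and 21.2% of all genes then tested. After quantile scaling 1 was higher and 4 lower, beside 21.0% and 19.9%. With equal FPKM sums 1 was higher and 6 lower, beside 15.3% and 29.3%. The channel kinase TRPM7 (0.36, limma adjusted p 0.00407) and the store-operated channel gene ORAI2 (0.29, adjusted p 0.0135) were the highest of those called. The ORAI2 call was lost after quantile scaling (0.0595), with equal FPKM sums (0.11) and with no filter (0.109). The IP3 receptor gene ITPR1, which encodes a calcium release channel of the endoplasmic reticulum, was lower (-0.60, adjusted p 0.00411).

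Of 6 tested genes of the vitamin K cycle and its carboxylated proteins, 3 were lower and 0 higher, beside 17.5% and 28.4% of all tested genes, with a median of -0.18. As deposited, the lower genes were 2 carboxylated proteins and a reductase. The carboxylase gene GGCX (-0.17) and the epoxide reductase genes VKORC1 (-0.04) and VKORC1L1 (0.02) were not called as deposited. This split depends on scaling. Lower calls among the 6 numbered 4 with TMM, 4 with quantile and 5 with equal-sum scaling, and 0 were higher in each. In that order, 21.2%, 19.9% and 29.3% of all genes then tested were lower. GAS6, a carboxylated ligand of TAM receptors, had 6.45 ± 0.431 FPKM in OVER43 and 9.98 ± 0.129 FPKM in EV libraries (log2 -0.56, limma adjusted p 0.000415), and PROS1, protein S, 14.9 ± 0.338 and 19.6 ± 0.593 FPKM (-0.37, adjusted p 0.000743). The reductase was NQO1, a quinone reductase (-0.18); it and the uncalled genes were named after their values were seen.

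**Figure D4:**
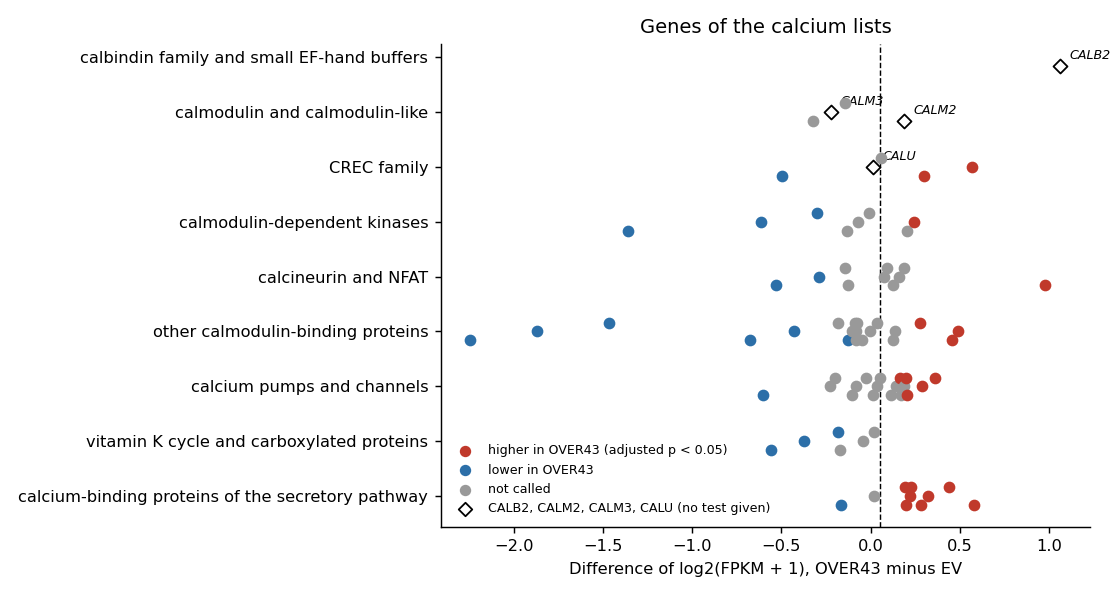
Difference of log2(FPKM + 1), OVER43 minus EV (horizontal axis), of tested genes in the calcium lists (rows); the dashed line is the median of all tested genes, 0.05. CALD1 (-2.24) and KCNN4 (-1.87) lie furthest to the left, CALB2 (1.06) lies furthest to the right, and most genes of the secretory list lie right of the line as deposited, though fewer are called higher after quantile or equal-sum scaling.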

How the data were processed

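Poly(A) RNA of 6 RKO libraries was measured. The authors deposited a gene table and an isoform table with FPKM per library, their log2 fold change of EV over OVER43, a test statistic (a score), and p-values with q-values; Cuffdiff made the values, per the submitters' processing notes, which name no version. The authors' comparison columns were not used. For the aligner, its settings and any use of strand, the entry is: not given in the sources used here. The notes name hg38, but 271 of 52335 gene identifiers shared with GENCODE 29 have the same start or end as there, and the loci were taken as hg19 positions, made 1-based. Of 63563 gene identifiers 52178 had a symbol in the gene name table; 19 genes had no estimate. No per-library column was left unused.

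FPKM was turned into log2(FPKM + 1), genes of 1 FPKM or more in 3 or more libraries were kept, and OVER43 was compared with EV by limma 3.58.1 in R 4.3.3 with Benjamini-Hochberg adjustment over all 12205 genes, on the values as scaled by the authors. The pseudocount of 1 lowers the fold changes of weakly expressed genes. Depth was read from the steps between low FPKM values, 279 to 313 values per library, all within 0.1 of a whole multiple; counting error only is covered. The fit was tested on simulated data. The chosen genes and all lists were picked with earlier results of these data known. Named genes were the 5 chosen genes, GJA1, the CREC family and small EF-hand buffers, the 2 highest and 2 lowest called genes of every other list whose groups did not overlap, nearest neighbours and the 5 genes most like CALB2; some genes of the lists are counted but not reported here by name or plotted. Alternatives were 3 scalings, a pseudocount of 0.1, other filters, a replicate block and leaving out each library. Coding sequences and predicted proteins were read from GENCODE 29 transcripts.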

Additional observations from a re-analysis of the deposited data

How the results depend on the processing

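Scaling moved the levels and the balance of directions, while the filter and left-out libraries moved counts and single calls. The CALB2 difference of log2(FPKM + 1) was 1.01 after TMM scaling, 0.92 with equal FPKM sums and 0.86 after quantile scaling. In the same order, CALM2 was at 0.13, 0.045 and -0.0048, CALM3 at -0.28, -0.36 and -0.41, and CALU at -0.038, -0.13 and -0.17. With equal FPKM sums the median of all tested genes was -0.08, against 0.05 as deposited, and 1867 genes were called higher and 3579 lower. The higher share of the calls was 61.8% as deposited, 52.1% after TMM, 51.2% after quantile and 34.3% after equal-sum scaling. In the calcium lists, 11 genes were called higher after quantile scaling, beside 21.0% of all genes then tested. With equal sums 11 were higher and 31 lower, beside 15.3% and 29.3% of all genes then tested. With no filter 3959 of 31562 genes were called, and the calls of EEF2K, NFATC4, ORAI2 and RCN3 were lost. Left-out libraries changed the calls of RCN3, EEF2K and CETN3 and moved 16 list counts by over 1.5 times. Leaving out each library gave 4696 to 4928 calls, and CALB2 differences between 1.04 and 1.08, CALM3 between -0.24 and -0.21. The column numbers did not pair the libraries (correlations of same-numbered deviations 0.0166, -0.0909 and 0.0285), and with the replicate block 5316 genes were called, 38 of them in the calcium lists. Depth limits CALB1, whose values amount to few fragments.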

Other observations

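In the list of calcium channels, the ryanodine receptor gene RYR2, a calcium release channel best known from heart muscle, had 0.130, 0.138 and 0.105 FPKM in OVER43 libraries, against 0.422, 0.374 and 432.9 FPKM in EV libraries. The single high value was that of EV library 2, and RYR2 did not pass the filter. Its values entered the summed FPKM of the libraries and, among the counts of calls, only those made with no filter. Among the less studied genes of the calmodulin list, centrin 3 (CETN3), an EF-hand protein of centrioles, had 16.3 ± 2.58 FPKM in OVER43 and 20.6 ± 2.37 FPKM in EV libraries (SD, n = 3 each) and was not called (limma log2 difference -0.33, adjusted p 0.0513). It was called lower in OVER43 after TMM (adjusted p 0.0319), quantile (0.0287) and equal-sum scaling (0.0154), with a filter of 5 FPKM (0.038), with the replicate block (0.0134) and on leaving out OVER43 library 1 (0.00989) or EV library 0 (0.0251).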
